A study of Homo sapiens with 6 samples.

Results

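The levels of 10 imprinted genes were followed in H9, a widely used line of human embryonic stem cells, after knockdown of NPM1, which encodes the nucleolar protein nucleophosmin (B23). The genes were taken by name from the table of transcript levels, and all 10 were found among its 62703 genes. They are the paternally expressed IGF2, DLK1, SNRPN, PEG3, PEG10, NNAT and MEST (7 genes) and the maternally expressed H19, MEG3 and CDKN1C (3 genes). In 3 libraries the cells had received an siRNA directed at NPM1 (siNPM1, labelled siB23), and 3 libraries came from cells labelled Control (siControl). Both groups are of the same line, H9, and carry no other labelled change. The replicates are described by the submitters as biological, without stating whether cultures were separate, so p-values measure the spread between these libraries.

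An imprinted gene is transcribed mainly from the copy inherited from 1 parent, because DNA methylation laid down in the germ line marks one of the parental copies. The marked regions, called imprinting control regions, act on neighbouring genes together, so imprinted genes lie in clusters with paternally and maternally expressed members side by side. Many paternally expressed genes favour fetal growth and several maternally expressed genes restrain it. Cultured human pluripotent cells are known for drift at some imprinted loci, the MEG3 region among them. Levels in TPM (length-scaled transcript shares) add up both parental copies, so the allele of origin was not measured here, and the parental class is textbook knowledge.

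The promoters of SNRPN and MEST are shown because these were the members whose levels did not overlap between the groups at high levels, and because SNRPN shares its start with a second transcript that was also lower in each siNPM1 library. Both are from RefSeq on GRCh38.p14, 250 bases before to 50 after the start, in which 4 of the 10 members have an entry (SNRPN, MEST, H19 and MEG3). Capitals mark the letters TGCCGC on either strand, which are the core of the motif bound by ZFP57, a zinc finger protein that protects methylated imprints.
SNRPN and SNURF, chr15:24954737-24955036, plus strand: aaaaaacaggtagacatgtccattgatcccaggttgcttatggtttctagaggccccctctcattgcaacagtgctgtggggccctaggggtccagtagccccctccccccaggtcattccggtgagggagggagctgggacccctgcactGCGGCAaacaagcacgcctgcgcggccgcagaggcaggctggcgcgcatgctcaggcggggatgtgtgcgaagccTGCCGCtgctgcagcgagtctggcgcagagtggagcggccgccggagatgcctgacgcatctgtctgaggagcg
MEST, chr7:130491835-130492134, plus strand: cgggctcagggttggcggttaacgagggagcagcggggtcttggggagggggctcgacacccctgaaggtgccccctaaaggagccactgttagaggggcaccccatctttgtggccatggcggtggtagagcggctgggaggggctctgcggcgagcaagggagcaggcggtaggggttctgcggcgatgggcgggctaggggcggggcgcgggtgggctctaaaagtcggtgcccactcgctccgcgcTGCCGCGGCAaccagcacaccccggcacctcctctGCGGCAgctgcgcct
The first holds 2 matches and 18 CpG dinucleotides, and annotated starts of SNRPN and SNURF lie within 50 bases of its start. The second holds 3 matches, of which a pair overlap, and 25 CpG dinucleotides. Over 35116 RefSeq promoters of this length, 16.7% hold at least 1 match and the median is 14 CpG dinucleotides. A match describes the letters and is not a measured binding site. SNRPN has 4 and MEST 5 promoter entries, and those printed hold the most matches and CpG dinucleotides of each gene. The other entries hold 0 or 1 matches for SNRPN and 0 to 2 for MEST. Gene-level TPM values do not tell which start was used.

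NPM1 itself stood at 173, 165 and 238 TPM in siNPM1 replicates 1, 2 and 3, against 3109, 2969 and 3132 TPM in siControl replicates 1, 2 and 3. The 6 libraries did not separate by group alone. The first principal component held 54.4% of the variance. On it, siControl replicates 1 and 3 lay at -59.9 and -61.7, while the other 4 libraries lay between 28.1 and 32.2. On the second, which held 17.5% of the variance, siNPM1 replicate 1 stood apart at 48.7, against -10.7 and -6.65 for siNPM1 replicates 2 and 3. Mitochondrially encoded protein transcripts made up 17.0% to 19.8% of the total in siNPM1, against 8.86% and 8.82% in siControl replicates 1 and 3 and 22.3% in siControl replicate 2. Over 15768 tested genes, siControl replicates 1 and 3 both lay on one side of the other 4 libraries for 56.5%. Results are therefore also given without siControl replicate 2 and against that replicate alone. Against a single control no spread between controls can be measured, so that fit is read for its fold changes only. TPM keeps no sequencing depth, so the depth behind each value is unknown and differences are judged against the spread between libraries.

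The 10 genes spanned a wide range of levels, and TPM, being scaled by transcript length, allows them to be ranked. SNRPN was highest, PEG10 and MEST followed and overlapped each other within each group, and CDKN1C came next. IGF2, H19 and NNAT followed, at 0.85 to 4.11 TPM, with overlapping ranges over the 6 libraries. DLK1 lay below them in siControl, at 0.14 to 0.57 TPM. In siNPM1 DLK1, at 0.97 to 1.27 TPM, overlapped H19 and NNAT and lay below IGF2, at 2.76 to 4.11 TPM. PEG3 and MEG3 were at or near 0 in every library. Of the 10, 7 reached the mean of 1 TPM over the 6 libraries that was needed for testing, and DLK1, PEG3 and MEG3 did not. The whole list summed to 639 to 770 TPM in siNPM1 libraries, against 821 to 943 TPM in siControl libraries, and SNRPN made up most of each sum.

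**Figure D1:**
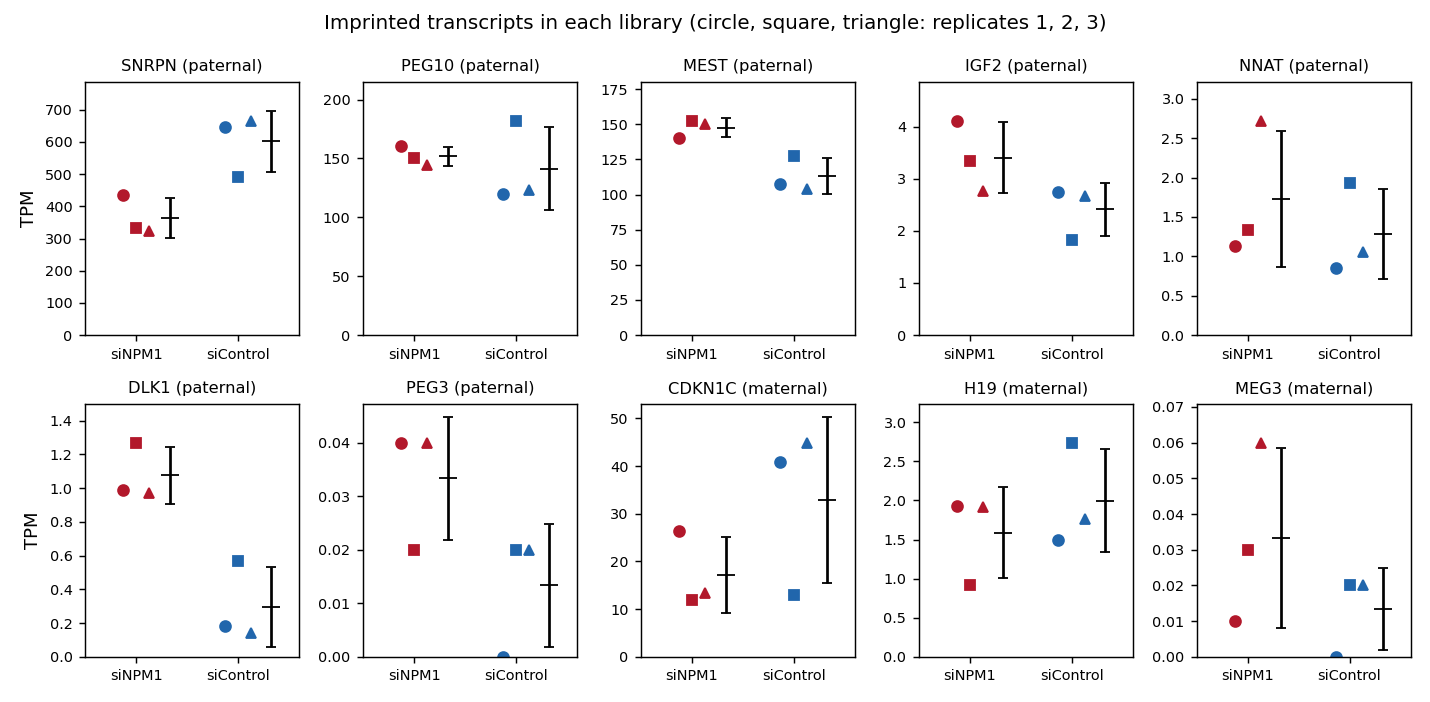
TPM (vertical axis, linear from 0, its own scale in each panel) of the 10 imprinted genes in the 3 siNPM1 libraries (red) and the 3 siControl libraries (blue), with the mean and SD of each group in black. SNRPN lies lower and MEST higher in each siNPM1 library than in any siControl library, while siControl replicate 2 (blue square) lies apart from the other siControl libraries for CDKN1C and PEG10.

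With all 6 libraries, 0 of the 7 tested members passed as higher and 0 as lower (limma, Benjamini-Hochberg adjusted p under 0.05 over 15768 genes). At an unadjusted p under 0.05 there were 2 of 7, SNRPN and MEST. Over all tested genes, 0.0% passed as higher, 0.0254% passed as lower, and 19.7% had an unadjusted p under 0.05, so the list was not set apart by these counts. Fold changes are given as log2(TPM + 1) in siNPM1 less that in siControl. Among the members they were positive for 4 and negative for 3, though NNAT turned negative under quantile normalization, with a median of 0.13 beside 0.10 over all tested genes. For 5 of the 7, siControl replicates 1 and 3 both lay on one side of the other 4 libraries, beside 56.5% of all tested genes. Without siControl replicate 2, MEST and PEG10 passed as higher and SNRPN and CDKN1C as lower, 2 of 7 in each direction, beside 24.1% and 12.9% of all tested genes in the same fit. Without siNPM1 replicate 1, 0 of the 7 passed and each had the same sign as with all 6 libraries, among them SNRPN (log2 fold change -0.86, limma, adjusted p = 0.249), MEST (0.42, adjusted p = 0.315) and CDKN1C (-1.14, adjusted p = 0.377).

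Among the paternally expressed members, SNRPN had the smallest p. It encodes SmN, a core protein of spliceosomal small nuclear ribonucleoproteins that is abundant in brain. SNRPN (ENSG00000128739, GRCh38 chromosome 15, 24823637 to 24978723, protein-coding, on the plus strand) had 435, 331 and 323 TPM in siNPM1 replicates 1 to 3, against 647, 492 and 665 TPM in siControl replicates 1 to 3. Each siNPM1 library lay below each siControl library, and siControl replicate 2 was the lowest control. Groups failed to overlap in the lower direction for 8.55% of all tested genes. The mean level in siNPM1 was 60.4% ± 10.4 of the siControl mean (SD, n = 3), and the log2 fold change of -0.73 (standard error 0.174) did not pass in limma (adjusted p = 0.201). A two-sided exact permutation test gave p = 0.1, the smallest possible for 3 against 3 libraries. SNRPN passed as lower without siControl replicate 2 (log2 fold change -0.87, limma, adjusted p = 0.00981). Against that replicate alone SNRPN had a log2 fold change of -0.45.

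SNURF, encoded by the first exons of the same bicistronic transcript as SNRPN, showed the lowest p among the other imprinted genes. SNURF (ENSG00000273173, chromosome 15, 24954986 to 24977850, on the plus strand) had 9.04, 10.99 and 13.35 TPM in siNPM1, against 49.6, 22.9 and 44.6 TPM in siControl. The groups did not overlap, and the mean in siNPM1 was 28.5% of the siControl mean, with a log2 fold change of -1.67 that did not pass (limma, adjusted p = 0.173). Without siControl replicate 2 it passed as lower (limma, adjusted p = 0.00232). Reads cannot be assigned cleanly between the pair: 64.1% of the 50-base stretches of annotated SNURF transcripts also occur in annotated SNRPN transcripts. The ratio of SNRPN to SNURF TPM was 48.1, 30.2 and 24.2 in siNPM1, against 13.0, 21.4 and 14.9 in siControl, again without overlap. SNRPB, the paralog of SNRPN whose product SmB takes the same place in the particle, stood at 280, 340 and 350 TPM in siNPM1 and 339, 353 and 346 TPM in siControl. Its transcripts share 0% of such stretches with SNRPN, and it did not pass (log2 fold change -0.10, standard error 0.118, limma, adjusted p = 0.608).

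SNRPN and SNURF lie in the Prader-Willi and Angelman region of chromosome 15, where the promoter printed above overlaps the imprinting control region. The other transcripts of the region did not share one pattern. SNHG14, the long host RNA of small nucleolar RNAs that runs downstream of SNRPN on the same strand, stood at 307, 282 and 280 TPM in siNPM1, against 240, 386 and 234 TPM in siControl, and the groups overlapped (log2 fold change 0.05, limma, adjusted p = 0.887). PWAR5, a noncoding transcript inside the SNHG14 locus that shares 0% of its 50-base stretches with annotated SNHG14 transcripts, stood at 7.29, 6.09 and 6.06 TPM in siNPM1, against 22.9, 7.66 and 23.9 TPM in siControl. Each siNPM1 library lay below each siControl library, as for 8.55% of all tested genes. PWAR5 was high in siControl replicates 1 and 3, and siControl replicate 2 lay close to the siNPM1 libraries (log2 fold change -1.21, limma, adjusted p = 0.229).

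NDN, which encodes necdin, a growth suppressor of the MAGE family, stood at 10.7, 14.7 and 12.1 TPM in siNPM1, against 6.86, 17.99 and 8.37 TPM in siControl. MAGEL2, another MAGE family gene, stood at 1.34, 0.99 and 1.15 TPM in siNPM1, against 0.60, 1.49 and 0.67 TPM in siControl. In both the groups overlapped, and siControl replicate 2 was the highest library. UBE3A, a ubiquitin ligase expressed from the maternal copy in neurons, was at 42.0 to 47.6 TPM in siNPM1 and 40.8 to 47.7 TPM in siControl. MKRN3 was listed at 0 in all 6 libraries. Of the 8 tested transcripts of the region, 0 passed with all 6 libraries. Without siControl replicate 2, SNHG14 (log2 fold change 0.29, limma, adjusted p = 0.0284) and NDN (0.64, adjusted p = 0.0351) passed as higher. In that fit SNRPN, SNURF and PWAR5 (log2 fold change -1.71, limma, adjusted p = 0.00172) passed as lower. These 2 and 3 of 8 stand beside 24.1% higher and 12.9% lower over all tested genes. PWAR5, SNHG14, NDN, MAGEL2 and UBE3A were chosen after their values were seen.

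**Figure D2:**
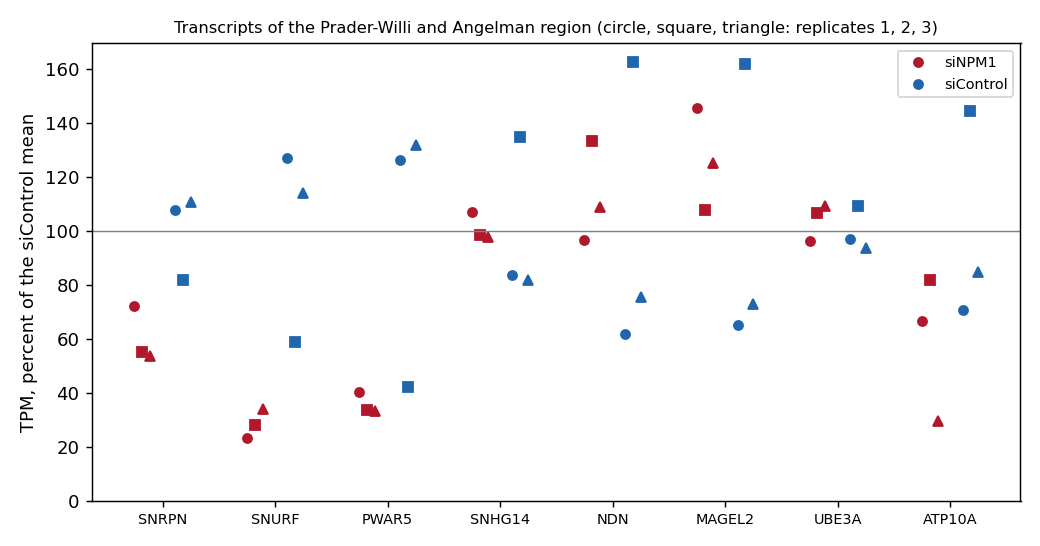
TPM of 8 transcripts of the Prader-Willi and Angelman region as a percentage of the siControl mean (vertical axis, linear from 0), in siNPM1 (red) and siControl (blue) libraries. SNRPN at 53.7% to 72.3% and SNURF at 23.1% to 34.2% in siNPM1 lie below each siControl library. So does PWAR5, at 33.4% to 40.1% in siNPM1, though siControl replicate 2 stands close, at 42.2%. For SNURF, PWAR5, SNHG14, NDN, MAGEL2 and ATP10A siControl replicate 2 (blue square) lies far from the other siControl libraries. For SNURF it stands at 58.7%, against 127% and 114% in siControl replicates 1 and 3.

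MEST, a paternally expressed gene for a protein of the alpha/beta hydrolase fold family linked to fetal growth, was the other member with an unadjusted p under 0.05. MEST (ENSG00000106484, chromosome 7, 130486171 to 130506465, protein-coding, on the plus strand) had 140, 152 and 150 TPM in siNPM1, against 108, 127 and 104 TPM in siControl. Each siNPM1 library lay above each siControl library, as for 16.2% of all tested genes. The siNPM1 mean was 1.31 times the siControl mean, and the log2 fold change of 0.39 (standard error 0.117) did not pass in limma (adjusted p = 0.218). MEST passed as higher without siControl replicate 2 (log2 fold change 0.48, limma, adjusted p = 0.00749). Against that replicate alone MEST had a log2 fold change of 0.21. The antisense transcript MESTIT1, which starts near the imprinted MEST promoter, stood at 0.33, 0.19 and 0.31 TPM in siNPM1, against 0.08, 0.10 and 0.06 TPM in siControl, and was too low to be tested. Annotated MEST transcripts share 6.97% of their 50-base stretches with the opposite strand of MESTIT1 and 3.55% with that of COPG2, so without a stated strand setting a small part of the reads could fall to either. MIR335, the microRNA gene hosted by MEST, was listed at 0 in all 6 libraries.

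PEG10 and IGF2 did not pass with all 6 libraries. PEG10 encodes a protein derived from a retrotransposon that is needed for the placenta in mice. PEG10 (ENSG00000242265, chromosome 7, 94656325 to 94669695, on the plus strand) had 161, 150 and 144 TPM in siNPM1, against 119, 182 and 123 TPM in siControl. siControl replicate 2 was the highest library and the groups overlapped (log2 fold change 0.13, standard error 0.177, limma, adjusted p = 0.685). PEG10 passed as higher without siControl replicate 2 (log2 fold change 0.32, limma, adjusted p = 0.0251) and had a log2 fold change of -0.26 against that replicate alone. SGCE, the paternally expressed sarcoglycan gene that shares its promoter region with PEG10 on the opposite strand, stood at 22.1, 22.5 and 20.1 TPM in siNPM1, against 27.5, 16.2 and 28.0 TPM in siControl. In siControl replicate 2, SGCE was the lowest and PEG10 the highest of the 6 libraries. SGCE had a log2 fold change of -0.10 (limma, adjusted p = 0.803). Without siControl replicate 2 SGCE passed as lower (log2 fold change -0.35, limma, adjusted p = 0.0348), and against that replicate alone it had a log2 fold change of 0.39.

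IGF2, a growth factor of the fetus that signals through the receptor IGF1R, was low in these cells. IGF2 (ENSG00000167244, chromosome 11, 2129112 to 2149603, on the minus strand) had 4.11, 3.34 and 2.76 TPM in siNPM1, against 2.75, 1.82 and 2.66 TPM in siControl. The groups did not overlap by a narrow margin, 2.76 TPM in siNPM1 replicate 3 against 2.75 TPM in siControl replicate 1. The log2 fold change was 0.37 (standard error 0.223, limma, adjusted p = 0.365), and 0.24 without siControl replicate 2 (adjusted p = 0.337). IGF2 shares 19.7% of its 50-base stretches with the readthrough transcript INS-IGF2, which was listed at 0 throughout, as was the hosted microRNA gene MIR483.

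NNAT and DLK1 completed the paternally expressed members above 0.1 TPM. NNAT encodes neuronatin, a small membrane protein of developing brain, and lies within an intron of BLCAP. NNAT (ENSG00000053438, chromosome 20) stood at 1.13, 1.33 and 2.72 TPM in siNPM1, against 0.85, 1.93 and 1.06 TPM in siControl, with overlapping groups (log2 fold change 0.24, standard error 0.314, limma, adjusted p = 0.663). The direction turned without siNPM1 replicate 3, its highest library (log2 fold change -0.00477), and after quantile normalization (-0.02). BLCAP stood at 41.2, 52.6 and 51.3 TPM in siNPM1, against 31.0, 45.5 and 31.2 TPM in siControl, and did not pass (log2 fold change 0.43, limma, adjusted p = 0.261).

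DLK1 encodes a transmembrane protein with epidermal growth factor repeats that restrains differentiation of fat and other precursor cells. DLK1 (ENSG00000185559, chromosome 14) stood at 0.99, 1.27 and 0.97 TPM in siNPM1, against 0.18, 0.57 and 0.14 TPM in siControl. The groups did not overlap, but all values lay near or below 1 TPM, and DLK1 passed the filter in no fit that required a mean of 1 TPM unless values were rescaled. Tested without that filter it did not pass (limma, adjusted p = 0.321). PEG3, a zinc finger gene, was listed at 0.04, 0.02 and 0.04 TPM in siNPM1 and 0, 0.02 and 0.02 TPM in siControl. ZIM2, which shares exons with PEG3, was listed at 0.04 TPM in siNPM1 replicate 1 and at 0 in the other 5 libraries.

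Among the maternally expressed members, CDKN1C differed most between libraries but not by group. It encodes p57, an inhibitor of cyclin-dependent kinases that restrains fetal growth. CDKN1C (ENSG00000129757, chromosome 11, 2883213 to 2885773, on the minus strand) had 26.3, 11.9 and 13.3 TPM in siNPM1, against 40.9, 12.9 and 44.9 TPM in siControl. siControl replicate 2 lay within the siNPM1 range and the other siControl libraries lay above it, and siNPM1 replicate 1 was the highest siNPM1 library. The log2 fold change was -0.80 (standard error 0.511, limma, adjusted p = 0.383). CDKN1C passed as lower without siControl replicate 2 (log2 fold change -1.36, limma, adjusted p = 0.0302). Against that replicate alone CDKN1C had a log2 fold change of 0.30. The related gene CDKN1B, which encodes p27 and is not imprinted, was ordered in a similar way, at 32.8, 22.4 and 21.6 TPM in siNPM1 and 51.9, 24.8 and 47.2 TPM in siControl (chosen after its values were seen). KCNQ1OT1, the paternally expressed antisense RNA that controls the CDKN1C cluster, was at 0.59 to 0.73 TPM in siNPM1 and 0.65 to 0.72 TPM in siControl.

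H19 is a maternally expressed long noncoding RNA that shares enhancers with IGF2, so that in many tissues one parental copy makes H19 and the other IGF2. H19 (ENSG00000130600, chromosome 11, 1995176 to 2001470, on the minus strand) had 1.93, 0.92 and 1.92 TPM in siNPM1, against 1.49, 2.74 and 1.76 TPM in siControl, with overlapping groups (log2 fold change -0.21, standard error 0.28, limma, adjusted p = 0.663). The ratio of H19 to IGF2 TPM was 0.47, 0.28 and 0.70 in siNPM1, against 0.54, 1.51 and 0.66 in siControl. These ratios overlapped and rest on low values in each library. MIR675, the microRNA gene within H19, was listed at 0 in all 6 libraries. MEG3, the maternally expressed noncoding RNA of the DLK1 cluster, was listed at 0.01, 0.03 and 0.06 TPM in siNPM1 and 0, 0.02 and 0.02 TPM in siControl, and its microRNA gene MIR770 at 0 throughout. The other genes of that cluster in the list were also low: MEG8, MEG9 and RTL1 stayed under 0.5 TPM in each library.

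The parental classes were set side by side without a test, since their members share the same 6 libraries. The 5 tested paternally expressed members had a median log2 fold change of 0.24, with 4 positive (NNAT not so under quantile normalization) and 1 negative. The 2 tested maternally expressed members had a median of -0.51, with both negative. The paternal minus maternal difference of these medians was 0.75 with all 6 libraries and 1.02 without siControl replicate 2. It was 0.46 without a filter on low values, where all 10 members enter. Against siControl replicate 2 alone it was -0.02. SNRPN, the most abundant paternally expressed member, went against its class. In summed TPM, the paternally expressed members stood at 742, 640 and 624 in siNPM1, against 878, 805 and 896 in siControl, and the maternally expressed ones at 28.3, 12.8 and 15.3 in siNPM1, against 42.4, 15.7 and 46.7 in siControl.

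**Figure D3:**
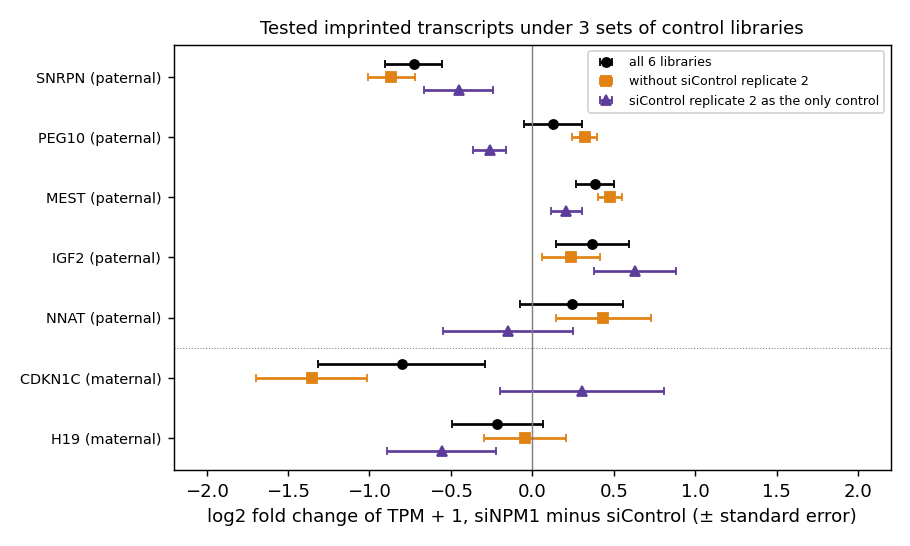
Log2 fold change of TPM + 1, siNPM1 minus siControl, with its standard error (horizontal axis), for the 7 tested imprinted genes, paternally expressed above the dotted line and maternally expressed below it. Points give all 6 libraries (black), the fit without siControl replicate 2 (orange) and siControl replicate 2 as the only control (purple), where CDKN1C, PEG10 and NNAT lie on the other side of 0.

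A wider list of 41 other imprinted genes gave the same count of calls. Of these, 39 had a row in the table, 2 were listed at 0 in every library and 23 were tested. With all 6 libraries 0 passed in either direction, 14 were positive and 9 negative, and the median log2 fold change was 0.06, beside 0.10 over all tested genes. The paternally expressed ones (11 tested) had a median of 0.05 and the maternally expressed ones (12 tested) a median of 0.08, beside 0.24 and -0.51 for the paternally and maternally expressed genes among the 10. Without siControl replicate 2, 3 of 23 passed as higher and 3 as lower, beside 24.1% and 12.9% of all tested genes. PHLDA2, a maternally expressed gene of the CDKN1C cluster that restrains placental growth, had the smallest p after SNURF. It stood at 6.44, 11.2 and 14.6 TPM in siNPM1, against 4.91, 2.75 and 5.48 TPM in siControl, with no overlap (log2 fold change 1.10, standard error 0.337, limma, adjusted p = 0.219). Its positive fold change stands beside a negative one for CDKN1C of the same cluster. Groups failed to overlap in the higher direction for 16.2% of all tested genes. PHLDA2 did not pass without siControl replicate 2 (log2 fold change 0.86, limma, adjusted p = 0.0898). The direction of PHLDA2 did not turn against siControl replicate 2 alone (log2 fold change 1.58).

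Factors that keep or read imprints were described from a list of 13, of which 12 were tested and 0 passed with all 6 libraries. Their median log2 fold change was 0.12, beside 0.10 over all tested genes. DPPA3, which protects imprints from demethylation in the early embryo, stood at 6.52, 5.52 and 6.95 TPM in siNPM1, against 0.99, 2.13 and 0.94 TPM in siControl (log2 fold change 1.67, limma, adjusted p = 0.134). CTCFL, the testis paralog of the insulator protein CTCF, stood at 0.26, 0.54 and 0.52 TPM in siNPM1, against 4.25, 1.61 and 4.28 TPM in siControl (log2 fold change -1.54, limma, adjusted p = 0.184). Neither gene's groups overlapped, beside 24.8% of all tested genes without overlap in either direction. Both passed without siControl replicate 2 (adjusted p = 0.00207 and 0.00274 in limma). In that fit 4 of the 12 passed as higher and 1 as lower, beside 24.1% and 12.9% of all tested genes. ZNF445, ZFP57 and DNMT1 were chosen after their values were seen. ZNF445, a zinc finger protein that binds imprinting control regions, stood at 12.1, 9.40 and 8.91 TPM in siNPM1, against 5.12, 7.25 and 4.73 TPM in siControl. ZFP57, whose motif is marked in the promoters above, stood at 0.17, 1.00 and 1.10 TPM in siNPM1, against 2.30, 0.27 and 2.03 TPM in siControl. DNMT1, the maintenance DNA methyltransferase, stood at 55.1, 58.0 and 54.4 TPM in siNPM1, against 53.0, 55.8 and 47.6 TPM in siControl, a log2 fold change of 0.10 (limma, adjusted p = 0.61).

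Neighbours of the clusters and paralogs of the members were tested as a list of 37, of which 26 reached 1 TPM and 0 passed with all 6 libraries. The smallest p values were at biallelic genes at the centromeric end of the Prader-Willi region. CYFIP1, which encodes an actin regulator, stood at 25.3, 35.8 and 34.9 TPM in siNPM1, against 46.5, 42.2 and 51.3 TPM in siControl (log2 fold change -0.54, limma, adjusted p = 0.22). NIPA1, a magnesium transporter gene, stood at 11.95, 12.5 and 12.8 TPM in siNPM1, against 37.1, 13.8 and 33.9 TPM in siControl (log2 fold change -1.01, limma, adjusted p = 0.235). siControl replicate 2 lay near the siNPM1 libraries for NIPA1.

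Because several members are used as markers of differentiating cells, markers of other cell types were read in the same libraries. Of 8 neuroectoderm markers 6 were tested and all 6 had positive fold changes, with 0 past the threshold. Over all tested genes, 9450 of 15768 were positive. For 4 of the 6 markers each siNPM1 library lay above each siControl library, beside 16.2% of all tested genes. OTX2 stood at 45.25, 3.96 and 4.92 TPM in siNPM1 replicates 1 to 3, against 1.21 to 2.33 TPM in siControl. PAX6 stood at 7.87 TPM in siNPM1 replicate 1. Its siNPM1 replicates 2 and 3 lay within the siControl range of 0.85 to 1.9 TPM. The summed level of the 8 markers was 271 to 314 TPM in siNPM1, against 164 to 222 TPM in siControl. This sum rests mainly on NES and TUBB3. NES stood at 102.6 to 147.6 TPM in siNPM1 and 68.9 to 84.3 TPM in siControl. TUBB3 overlapped between the groups, at 93.3 to 117.8 TPM in siNPM1 and 78.4 to 115.8 TPM in siControl. Pluripotency markers summed to 3178 to 3812 TPM in siNPM1, against 3842 to 4212 TPM in siControl. All 8 were tested, with 5 positive and 3 negative fold changes, and POU5F1, the most abundant, was at 1375 to 1393 TPM in siNPM1 and 1706 to 2266 TPM in siControl. Trophoblast and amnion markers summed to 80.3 to 90.6 TPM in siNPM1 and 98.6 to 125.9 TPM in siControl, mesoderm markers to 43.0 to 52.5 TPM in siNPM1 and 50.3 to 82.1 TPM in siControl, and fibroblast markers to 133 to 351 TPM in siNPM1 and 404 to 432 TPM in siControl. These 3 sums rest mainly on GABRP, KDR and THY1, and some other tested members had fold changes of the opposite sign. Of 3 tested trophoblast and amnion markers 2 were positive, among them KRT7 at 6.86 ± 2.44 TPM in siNPM1 and 3.52 ± 0.106 TPM in siControl (SD, n = 3 each), and of 4 tested fibroblast markers 1 was positive, COL1A1 at 17.0 ± 2.19 TPM in siNPM1 and 7.89 ± 2.01 TPM in siControl. Endoderm markers summed to 1.06 to 7.50 TPM in siNPM1 and 1.06 to 3.91 TPM in siControl. CGA of trophoblast, TTR of endoderm and DCN and LUM of fibroblasts were listed at 0 in all 6 libraries. The part of these markers in the levels of the imprinted genes was not tested. In bulk RNA, fewer cells of a type and less RNA per cell cannot be told apart.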

How the data were processed

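RNA sequencing covered 6 libraries of H9 cells, 3 siNPM1 and 3 siControl, grouped by their titles. The authors deposited 1 table of TPM values for 62703 genes. Per the submitters' processing notes, GRCh38 was the build. Aligner, counter, annotation and strand setting are not given in the sources used here. TPM keeps no depth. The authors' mean columns were not used.

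Values were taken as log2(TPM + 1) for 15768 genes that averaged 1 TPM or more and compared with limma 3.58.1 in R 4.3.3 (variance trend, two-sided moderated test, Benjamini-Hochberg adjustment, threshold 0.05). A fold change on this scale understates the change of low genes. For a single gene, a two-sided exact permutation test over 6 libraries cannot give a p below 0.1. On simulated data for the siNPM1 against siControl comparison (15768 genes), the test recovered 28 of 100 genes with an added log2 shift of 1 and 75 of 100 with a shift of 2, with 4 unshifted genes called. The simulated noise was drawn for each gene on its own, with no difference shared by a whole library. In the data, siControl replicates 1 and 3 both lay on one side of the other 4 libraries for 56.5% of tested genes. The simulated counts therefore need not hold for these libraries.

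The members and lists were chosen with earlier results of these data known. Of 164 list entries, 2 had no row in the table. The rule for named genes takes the 10 members, NPM1, the overlapping genes, relatives and hosted microRNA genes of members, and, of each list, up to 3 genes a direction past the threshold or the 2 with the smallest p. Positions come from GENCODE release 29, in which 92.9% of gene identifiers were found, and promoter sequences from RefSeq (GRCh38.p14). Alternatives covered the pseudocount, the filter, quantile normalization, centring, rescaling after removal of ribosomal protein and mitochondrial genes, the variance trend, the replicate block, array weights and leaving out each library.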

Additional observations from a re-analysis of the deposited data

How the results depend on the processing

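The count of members past the threshold stayed at 0 under other pseudocounts, filters, centring, quantile normalization, rescaling, no variance trend and the replicate block. It was 5 with array weights, which gave siControl replicate 2 a weight of 0.0977, and between 0 and 4 with each library left out. Over all genes, array weights gave 5771 higher and 3715 lower genes, and leaving out a library gave 0 to 3805 higher and 1 to 2028 lower ones, the upper values being those without siControl replicate 2. Beside 0 higher and 4 lower genes in the report, there were 3 higher without a variance trend. There were 2 lower with a pseudocount of 5, 2 with a mean of at least 5 TPM and 1 without a filter. With siControl replicate 2 as the only control, chosen after seeing the data, there were 27 lower genes. Only the siNPM1 libraries give a residual spread there. The paternal minus maternal difference was then -0.0218, CDKN1C had a log2 fold change of 0.30, PEG10 of -0.26 and NNAT of -0.15. NNAT was also negative with quantile normalization (-0.0155), and ran from -0.00477 without siNPM1 replicate 3 to 0.44 without siControl replicate 2. The causes were not tested. The replicate numbers did not pair the samples: same-numbered siNPM1 and siControl libraries had correlations of deviations of 0.0651, 0.0813 and -0.0383. With the replicate block there were 0 higher genes and 1 lower gene. The median log2 fold change of all tested genes was 0.10 and moved to -0.02 with centring and to 0.20 with rescaling, so log2 fold changes near this size, such as that of PEG10, carry no direction.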

Other observations

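Genes around IGF2 signalling were read from a list of 15 receptors, binding proteins and IGF2 mRNA binding proteins. Of these 13 were tested, 11 had positive fold changes, beside 9450 of all 15768 tested genes, and 0 passed with all 6 libraries. Their median log2 fold change was 0.15, beside 0.10 over all tested genes. IRS4, a signalling adaptor of the insulin and IGF1 receptors, stood at 7.53, 6.06 and 6.05 TPM in siNPM1, against 3.37, 3.83 and 3.46 TPM in siControl (log2 fold change 0.72, limma, adjusted p = 0.201). IGFBP6, a binding protein that prefers IGF2, averaged 8.33 ± 4.26 TPM in siNPM1 and 1.91 ± 0.82 TPM in siControl (SD, n = 3 each, log2 fold change 1.58, limma, adjusted p = 0.212). For both genes each siNPM1 library lay above each siControl library, as for 16.2% of all tested genes. The direction of both was the same against siControl replicate 2 alone (log2 fold changes 0.64 and 1.15). Without siControl replicate 2 both passed as higher (adjusted p = 0.014 and 0.034 in limma). In that fit 3 of the 13 passed as higher and 1 as lower, beside 24.1% and 12.9% of all tested genes. IGF2BP1, which binds IGF2 mRNA, stood at 70.0, 63.7 and 66.5 TPM in siNPM1 and 61.9, 78.6 and 60.1 TPM in siControl, with a log2 fold change of 0.01 (limma, adjusted p = 0.982).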
